A study of Homo sapiens with 6 samples.

Results

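U87MG was set against A172 and T98G, the other glioblastoma lines of the study, across all genes that the arrays measured. The U87MG arrays are 2 of the 6 arrays and were chosen by their titles: 1 came from cells transfected with a negative control and 1 from cells transfected with a precursor of miR-338-5p, here called the mimic. A172 and T98G gave 1 control array and 1 mimic array each, so 4 arrays stood on the other side, and every array was taken from cells 24 hours after transfection. All lines were bought from ATCC and grown in the same DMEM medium with serum, per the labels' protocols. No untransfected cells were analysed here, so "baseline" means the line's level in transfected cells, with the mimic as a term in the model. U87MG is a single cell line, and the labels do not say whether the arrays of a line came from separate cultures. The p-values therefore measure the spread between these arrays only, and a difference between lines cannot be told apart from a difference between cultures.

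Glioblastoma is an aggressive tumour of the brain whose cells keep some traits of glia and often take on mesenchymal traits, such as secretion of matrix proteins and matrix-cutting proteases. U87MG is among the oldest and most used lines made from it. The stock in circulation has been reported to differ genetically from the tumour it is named for, while still resembling a glioma.

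Values are RMA expression levels on the log2 scale, where a difference of 1 is a 2-fold difference. A gene was called where its limma p, adjusted by Benjamini-Hochberg over 13795 tested genes, was below 0.05. A level is described as near background where it lay below the 95th percentile of 341 olfactory receptor genes on the same array, which was between 4.24 and 4.52. For a gene near background in every array of one side, the fold is given as "at least", against that level or the gene's own value, whichever was higher. Array medians lay between 5.06 and 5.14. Over probe sets, the pair of arrays of a line correlated with r of at least 0.992, and no pair from separate lines with r above 0.962.

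U87MG was higher than the other lines in 543 genes, which is 3.94% of those tested, and lower in 416, which is 3.02%. Of these, 381 higher and 270 lower genes differed by 2-fold or more. The median difference was 1.29 over the genes called higher, -1.25 over those called lower and -0.0382 over all tested genes. All 959 called genes kept their direction in the control arrays alone and in the mimic arrays alone, and both U87MG arrays lay beyond all 4 others in 542 of those higher and 414 of those lower. The same arrays gave the calls, so this agreement is a description and not separate support. The calls need both U87MG arrays: with either one left out limma called 0 genes, although 716 higher and 558 lower genes had an unadjusted p under 0.05 without the control array and 714 and 635 without the mimic array. In these fits the spread comes from the other lines alone, and the lone U87MG array is assumed to vary like them. TMPRSS15 had a limma adjusted p of 0.0598 and 0.0549 there. With the arrays of a line treated as a random block, 113 higher and 76 lower genes were called, so most of the calls given here do not pass under that fit. It kept 27 of the 30 genes named by size and lost ZNF667-AS1, ZNF724 and ZNF730.

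This comparison keeps the difference between A172 and T98G in its error, so it calls genes that separate U87MG from both lines by a similar amount. A second fit with a term for each line called 1881 genes higher in U87MG than in A172 and also than in T98G, 13.6% of those tested, and 1735 lower than in both, 12.6%. All 543 higher and 416 lower genes were among them. Without 1 or the other U87MG array this fit still called 1353 and 1332 genes higher and 1112 and 1263 lower than in both lines. The median size of the difference was 0.336 to A172, 0.285 to T98G and 0.306 between A172 and T98G. Over all genes U87MG thus lay somewhat farther from A172, and somewhat nearer to T98G, than those lines lay from each other.

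**Figure D1:**
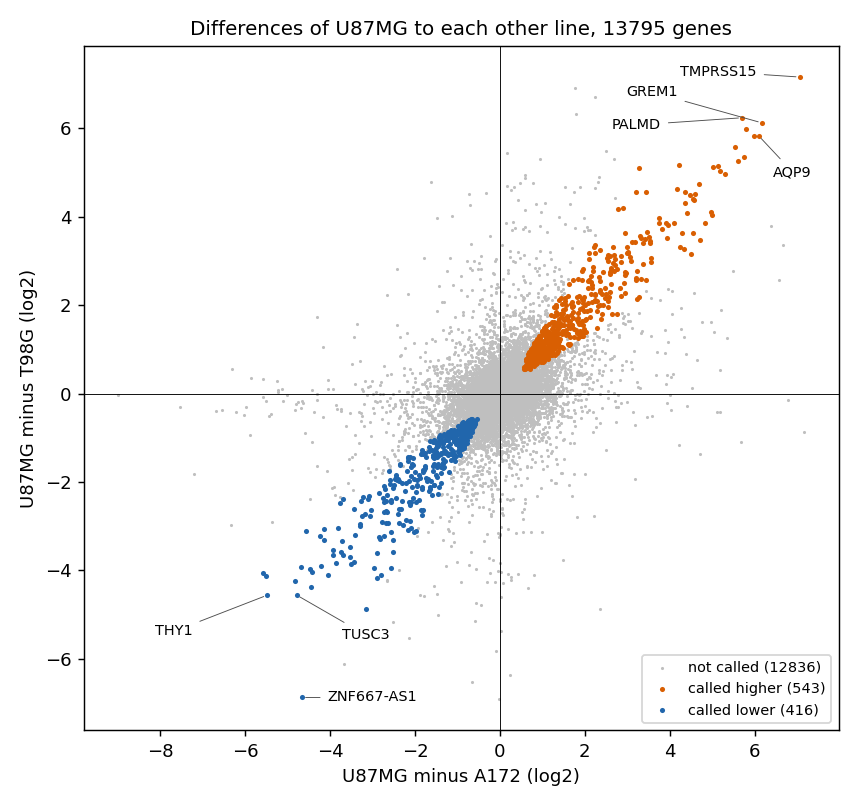
Difference of U87MG to A172 (horizontal axis, log2) and to T98G (vertical axis, log2), 1 point per tested gene, each a difference between means of 2 arrays. The 543 genes called higher (orange) and 416 called lower (blue) lie along the diagonal, with TMPRSS15 at 7.06 and 7.16, while genes that differ from 1 line only lie near an axis in grey.

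The 4 marker genes given for the line, TMPRSS15, GREM1, PALMD and AQP9, were all called higher. They were chosen with earlier results of these arrays known, so their height here is a description. TMPRSS15 encodes enteropeptidase, a transmembrane serine protease of the gut lining that activates trypsinogen. It read 9.56 and 9.68 in U87MG (control array, then mimic array), 2.58 and 2.54 in A172, and 2.34 and 2.57 in T98G. Both other lines were near background, so the difference of 7.11 ± 0.12 (SE) stands for a level at least 36.3-fold higher (limma adjusted p = 0.000612).

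GREM1 encodes gremlin, a secreted protein that binds and blocks bone morphogenetic proteins. Its level was 10.44 and 10.38 in U87MG, 4.32 and 4.16 in A172, and 4.18 and 4.38 in T98G, a difference of 6.15 ± 0.13 (adjusted p = 0.000612). In 3 of the 4 other arrays it was near background. PALMD, a protein of the palmdelphin and paralemmin family, read 9.70 and 9.59 against 3.80 and 4.08 in A172 and 3.31 and 3.50 in T98G, at least 37.0-fold higher. AQP9, a channel for water and glycerol, read 9.35 and 9.21 against values between 3.07 and 3.52 in the other lines, at least 28.7-fold higher. The groups of these 4 genes lay far apart, with no overlap.

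The starts of TMPRSS15 and GREM1 are shown because they differ sharply in base composition although both genes separate U87MG alike. The windows run from 250 bases before to 50 after the RefSeq gene start on GRCh38.p14, on the gene's strand, and capitals mark each CG dinucleotide. TMPRSS15 (chr21:18403736-18404035, minus strand) holds 0 and GREM1 (chr15:32717754-32718053, plus strand) holds 42. Over all 27305 windows of the table the median was 14, and 48.8% held at least 15. A window was found for 10907 of the 13795 tested genes, and there the median was 26 and 78.5% held at least 15.
TMPRSS15: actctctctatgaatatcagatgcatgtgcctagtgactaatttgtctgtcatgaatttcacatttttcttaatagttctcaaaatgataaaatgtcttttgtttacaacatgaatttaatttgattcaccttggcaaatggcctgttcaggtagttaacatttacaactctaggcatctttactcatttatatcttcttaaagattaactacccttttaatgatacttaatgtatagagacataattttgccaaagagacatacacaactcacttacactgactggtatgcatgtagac
GREM1: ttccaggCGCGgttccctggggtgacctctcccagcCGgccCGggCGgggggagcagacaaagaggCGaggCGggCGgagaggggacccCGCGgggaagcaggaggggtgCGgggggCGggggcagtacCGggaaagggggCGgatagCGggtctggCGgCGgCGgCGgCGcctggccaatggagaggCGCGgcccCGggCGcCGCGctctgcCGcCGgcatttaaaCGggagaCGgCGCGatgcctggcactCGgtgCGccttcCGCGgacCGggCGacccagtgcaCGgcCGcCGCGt

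The 15 genes per direction named here had the largest measured difference to the nearer line, and since values near background have no order, their rank is not a result. In 12 of the 15 higher genes, all 4 arrays of A172 and T98G were near background, and the exceptions were GREM1, EREG and TNFRSF10D. Secreted signals were among them: IL1B, the inflammatory cytokine interleukin-1 beta, read 9.11 and 9.15 in U87MG and between 3.21 and 3.89 in the other arrays, at least 25.9-fold higher. IL36B, another cytokine of the interleukin-1 family, read 9.09 and 8.78 against 2.70 to 3.22. EREG, the EGF receptor ligand epiregulin, read 9.94 and 10.16 against 4.42 to 4.58, a difference of 5.56 ± 0.12 (adjusted p = 0.000612).

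Membrane proteins formed another share of these genes. DPP4, a cell-surface peptidase also known as CD26, read 8.22 and 8.08 in U87MG and at most 3.17 elsewhere, at least 13.2-fold higher. GABRQ, the theta subunit of the GABA-A receptor, read 8.80 and 8.86 against 3.36 to 3.97. TNFRSF10D, a decoy receptor for the death ligand TRAIL, differed by 4.56 ± 0.13. HLA-DRB5, a class II histocompatibility chain, read 9.30 and 9.02 against 3.15 to 3.37, but near-identical DRB genes can share its probes and the level cannot be given to 1 of them. TMEM71, a membrane protein, was at least 10.0-fold higher. Of the nuclear proteins, EBF2, a transcription factor of mesodermal and fat lineages, was at least 12.4-fold higher and the histone gene H1-1 at least 24.6-fold. QNG1, an enzyme of queuosine salvage, was at least 21.6-fold higher.

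On the lower side was ZNF667-AS1, a noncoding RNA transcribed opposite to a zinc finger gene. It read 3.01 and 2.10 in U87MG, both near background, 7.21 and 7.22 in A172, and 9.51 and 9.35 in T98G, at least 16.3-fold lower (adjusted p = 0.0352). The labels do not say how overlapping transcripts were told apart. THY1, a surface glycoprotein of fibroblasts, neurons and mesenchymal cells, read 4.30 and 4.67 against 10.03 and 9.92 in A172 and 9.19 and 8.91 in T98G, a difference of -5.02 ± 0.41 (adjusted p = 0.00724). TUSC3, a subunit of the oligosaccharyl transferase that attaches sugars to proteins, read 5.29 and 4.89 against 9.62 to 9.89, a difference of -4.67 ± 0.16 (adjusted p = 0.00118). TUSC3 stayed above background in U87MG, and THY1 was near background in 1 of its arrays.

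Further genes of cell shape, lipid and matrix were low. MYH10, the heavy chain of nonmuscle myosin IIB, read 3.46 and 4.51 in U87MG and 8.17 to 8.86 elsewhere, a difference of -4.53 ± 0.33. OLR1, a scavenger receptor for oxidised lipoprotein, was near background at 4.09 and 4.18 and at least 25.1-fold lower. FADS2, the delta-6 fatty acid desaturase, read 5.05 and 5.16 against 9.13 to 9.55, a difference of -4.23 ± 0.19. PXDN, a peroxidase that crosslinks collagen IV, differed by -4.30 ± 0.33, and BAIAP2L1, an adaptor of actin and membrane curvature, was at least 12.6-fold lower. NFE2L3, a transcription factor of the NRF family, and RFLNB, a filamin-binding protein, differed by -3.85 ± 0.16 and -3.68 ± 0.13. The remaining 5 of the 15, ZNF724, ZNF83, ZNF730, ZNF91 and ZNF675, are zinc finger genes of 1 chromosome and are taken up with their neighbours.

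**Figure D2:**
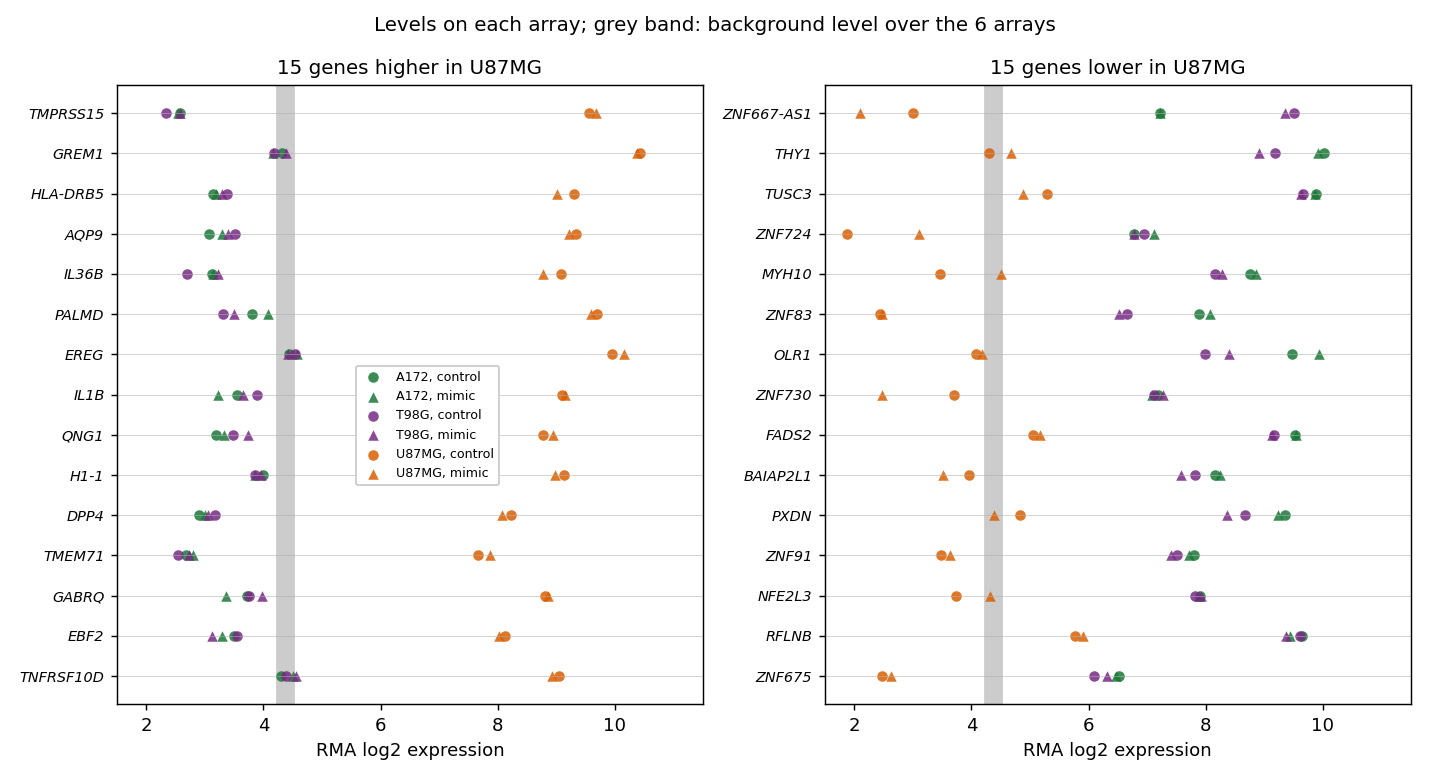
RMA log2 level of each array (horizontal axis) for the 15 higher and 15 lower genes with the largest difference to the nearer line; colour gives the line, circles the control arrays and triangles the mimic arrays, and the grey band spans the background levels of the 6 arrays, 4.24 to 4.52. Most of the 15 higher genes sit left of or in the band in A172 and T98G, and most of the 15 lower genes do so in U87MG.

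How far a level lies above background limits these sizes. Of the 543 genes called higher, 80 were near background in all 4 arrays of A172 and T98G, and of the 416 called lower, 64 were near background in both U87MG arrays. With the level of the gene filter, 4.28, as the border, the numbers were 61 and 65. Other called genes described here were near background in part of the arrays of 1 side, which makes the size of their difference uncertain. In U87MG these were THY1, MYH10, NFE2L3 and KLHL9, each in 1 array. In A172 or T98G they were GREM1, EREG, TNFRSF10D, ADAMTS5, WNT7B, CXCL1, CACNA1A, EFNB2 and SMOC1. Of genes described but not called, LCP1 was near background in T98G, and SLC1A3, HLA-DPA1 and TNC in A172. CDKN2A was near background in 1 array of U87MG and 1 of A172.

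The genes lower in U87MG were dense among the zinc finger genes of chromosome 19. This group and the other groupings by chromosome were chosen after their values were seen. Most proteins with the symbol ZNF and a number carry tandem C2H2 zinc fingers, often with a KRAB domain that recruits repressive chromatin, and many lie in clusters of recent duplicates on chromosome 19. Of 159 such genes kept by the filter there, 43 (27.0%) were called lower and 0 higher (adjusted p under 0.05 in limma), against 3.02% lower among all genes. Against both lines separately 66 (41.5%) were lower and 3 higher. The median difference was -0.42, beside -0.0382 over all genes. Of 184 numbered zinc finger genes on other chromosomes 10 (5.43%) were called lower and 2 higher, with a median of -0.106. Against both lines 41 (22.3%) of these were lower and 9 higher, where 12.6% of all genes were lower. The share of lower genes was thus above that of all genes there too, though less than on chromosome 19. Of the 897 other genes on chromosome 19, 12 (1.34%) were called lower.

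The called zinc finger genes differed by -0.95 to -4.83 with a median of -2.32, while the 116 not called had a median of -0.159. In 30 of the 43 called genes both U87MG arrays were near background, and no array of A172 or T98G was in any of the 43. A gene low in U87MG passes the filter on the mean over all arrays only where the other lines are higher. This contrast is thus partly set by the filter. The sizes of those 30, and medians that include them, are therefore uncertain. ZNF83 read 2.44 and 2.47 in U87MG, 7.88 and 8.07 in A172, and 6.66 and 6.52 in T98G, at least 7.91-fold lower (adjusted p = 0.0184). ZNF91, known to repress SVA retrotransposons, read 3.48 and 3.64 against 7.42 to 7.81, at least 9.96-fold lower (adjusted p = 0.00149). ZNF724 and ZNF730 read 1.88 and 3.10, and 3.70 and 2.47, against 6.77 to 7.27 elsewhere. ZNF675, a zinc finger protein reported to bind TRAF6, read 2.47 and 2.63 against 6.10 to 6.52.

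These genes lay side by side. In the order of genes along chromosome 19, taken from RefSeq, the longest run of neighbours lower in U87MG than in both lines held 15 genes, from ZNF253 to ZNF257, with a median of -1.93. A run of 5, ZNF730, ZNF724, ZNF91, ZNF675 and ZNF254, had a median of -4.06. Farther along the chromosome, a run of 12 from ZNF566 to ZFP30 had a median of -2.14, and runs of 6 from ZNF480 to ZNF611 and from ZNF28 to ZNF347 had medians of -2.36 and -2.65. Most zinc finger genes between these runs were not called, as the plot by order shows. Probes of recent duplicates can hybridise to each other's transcripts, so the level of a single member is uncertain.

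**Figure D3:**
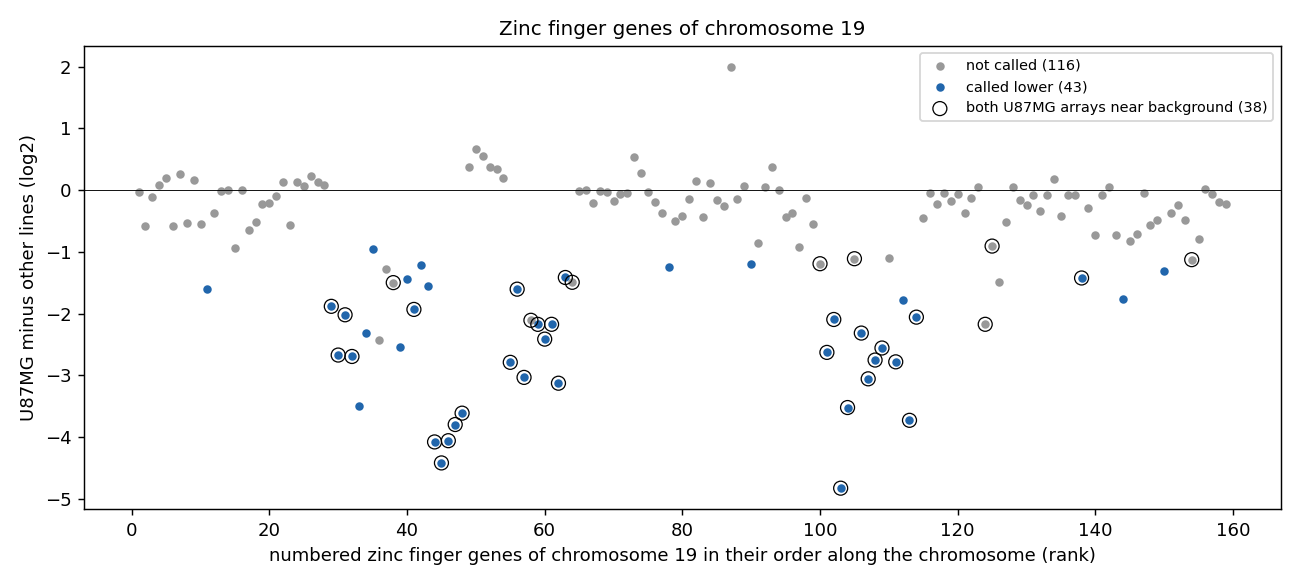
Difference of U87MG to the other lines (vertical axis, log2) for the 159 numbered zinc finger genes of chromosome 19, in their order along the chromosome (horizontal axis, rank). The 43 genes called lower (blue) gather in a few stretches, and in 38 of the 159 both U87MG arrays were near background (ringed).

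The windows at the starts of ZNF91 and ZNF83 are shown because the first lies in the run of 5 and the second in a run of 6. ZNF91 (chr19:23395422-23395721, minus strand) holds 11 CG dinucleotides, in capitals, and ZNF83 (chr19:52690447-52690746, minus strand) holds 29. Over the group, 40 of the 43 called genes had a window, with a median of 19, and 107 of the 116 not called, with a median of 22. At least 15 CG stood in 65.0% of the first and 83.2% of the second. Among all tested genes with a window the median was 26, and 78.5% held at least 15. DNA methylation was not measured.
ZNF91: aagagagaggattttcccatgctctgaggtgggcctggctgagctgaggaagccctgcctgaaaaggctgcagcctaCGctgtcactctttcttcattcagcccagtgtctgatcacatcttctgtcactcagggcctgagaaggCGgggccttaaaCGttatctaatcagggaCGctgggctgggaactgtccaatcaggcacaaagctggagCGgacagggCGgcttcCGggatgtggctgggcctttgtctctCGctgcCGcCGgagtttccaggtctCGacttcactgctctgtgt
ZNF83: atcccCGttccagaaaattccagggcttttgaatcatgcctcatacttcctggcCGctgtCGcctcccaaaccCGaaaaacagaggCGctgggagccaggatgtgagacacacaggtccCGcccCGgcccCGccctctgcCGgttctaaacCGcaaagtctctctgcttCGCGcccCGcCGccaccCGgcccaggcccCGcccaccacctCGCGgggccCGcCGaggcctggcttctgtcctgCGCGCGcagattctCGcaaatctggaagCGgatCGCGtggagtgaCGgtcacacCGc

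Chromosome 14 stood highest among the chromosomes. Of its 427 tested genes, 88 (20.6%) were called higher and 4 lower, against 3.94% higher among all genes. Against both lines 49.4% were higher, beside 13.6% among all genes. The median difference was 0.496, and it was 0.484 against A172 and 0.448 against T98G. By median chromosome 4 came next, at 0.21, and by the share called higher chromosome 18, at 7.85%. Chromosome 14 held 16.2% of all genes called higher and 3.1% of those tested, and 17 of the 81 runs of at least 4 neighbours that differed from both lines in 1 direction.

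The differences on chromosome 14 were modest: the called genes had a median of 1.13, against 1.42 for genes called higher elsewhere, and 27 of the 88 were below 2-fold. A run of 11 neighbours from CDKN3 to ATG14 had a median of 1.12. CDKN3, a phosphatase of cyclin-dependent kinases, read 9.82 and 9.77 in U87MG against 7.81 to 8.17 elsewhere. In the same run GCH1, which starts tetrahydrobiopterin synthesis, read 6.58 and 6.34 against 4.71 to 4.99. HIF1A, the oxygen-sensing transcription factor, read 11.61 and 11.35 against 10.54 to 10.73, a difference of 0.80 ± 0.12 (adjusted p = 0.0323). SMOC1, a secreted calcium-binding protein, read 7.79 and 7.41 against 4.26 to 4.71, a difference of 3.15 ± 0.19 with both T98G arrays near background. Among the 4 lower genes was BMP4, a ligand that gremlin blocks. DNA copy number was not measured, and its part in the pattern was not tested.

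On the lower side, chromosome 20 had the highest share of called genes, 8.05%, against 3.02% among all genes. Chromosome 19 followed with 5.21%, or 55 genes, of which 43 were the zinc finger genes. On chromosome 20, 23.7% were lower than in both lines, against 12.6% among all genes and 20.3% on chromosome 16. The median of chromosome 20 was -0.0992, close to that of all genes.

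**Figure D4:**
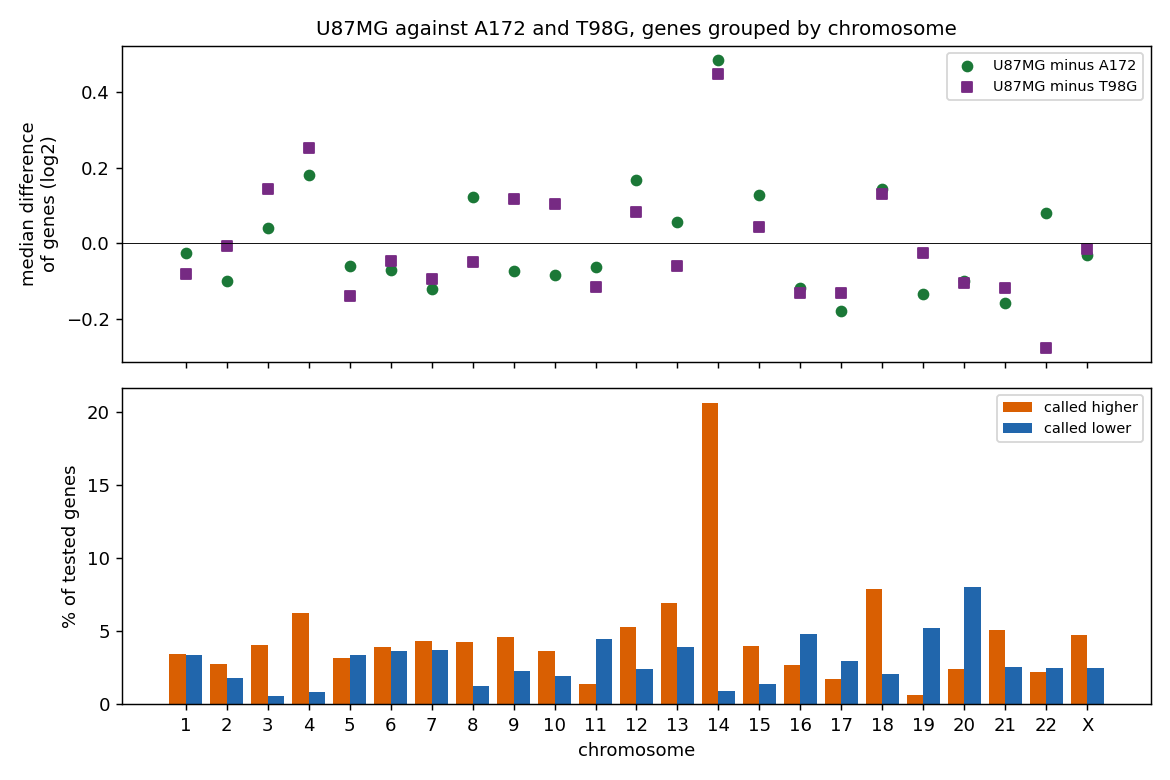
Upper panel, median difference (log2) of U87MG to A172 (circles) and to T98G (squares) over the tested genes of each chromosome; lower panel, percent of those genes called higher (orange) or lower (blue). Chromosome 14 stands apart at 0.484 and 0.448 with 20.6% called higher.

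A cluster of metallothionein genes on chromosome 16 was higher as a block. Metallothioneins are small proteins that bind zinc and copper. In a run of 11 neighbours all were higher than in both lines, with a median of 0.995. MT1E read 10.12 and 10.22 in U87MG against 7.07 to 7.27, MT1M 7.67 and 8.17 against 4.45 to 4.86, and MT1F 10.30 and 10.28 against 7.64 to 8.05. These genes are near-identical in sequence, so their probes can share signal. MT2A, the brightest, was 13.50 and 13.46 against 12.68 to 13.10 and was not called (adjusted p = 0.115). MT3, the member known from brain, differed by 0.10 and was not called.

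In the region of the CDKN2A tumour suppressor on chromosome 9, 3 of 8 measured genes were called lower in U87MG and 0 higher (limma), against 3.02% lower among all genes. The filter left out 11 more genes of the region, and all of these but MTAP were near background on every array. A gene low in U87MG passes that filter only where the other lines are higher, so the share is partly set by the filter. FOCAD, a focal adhesion protein, read 3.78 and 3.47 against 6.58 to 6.99, at least 5.56-fold lower. KLHL9, an adaptor of a ubiquitin ligase, read 4.36 and 4.15 against 7.53 to 8.48, a difference of -3.74 ± 0.26. MLLT3, a subunit of the super elongation complex, was at least 2.31-fold lower. CDKN2A itself read 4.20 and 4.43 in U87MG and 4.33 to 4.93 elsewhere and did not pass (adjusted p = 0.551). It was near background in 1 array of U87MG and 1 of A172, so the size of its difference is uncertain. MTAP, a neighbour that recycles methylthioadenosine, fell below the filter and was not tested: it read 3.32 and 3.002 in U87MG, 3.61 and 3.34 in A172, and 5.47 and 5.58 in T98G. The arrays of U87MG and A172 were all near background for it.

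The lists of pathways described next had few called members each, and their counts are to be read against 3.94% higher and 3.02% lower among all genes. Counts of genes higher or lower than in both lines come from the second fit and are to be read against 13.6% and 12.6%. All these counts cover genes kept by the filter on the mean over all arrays. That filter can leave out a gene that is high in U87MG only. Growth factors gave 5 higher and 1 lower of 25 measured, with a median of 0.312. HGF, the ligand of the MET receptor, read 7.59 and 7.47 in U87MG against 2.98 to 3.17, at least 8.56-fold higher. TGFA, a further EGF receptor ligand, was at least 8.54-fold higher. PTN, the heparin-binding factor pleiotrophin, differed by 2.53 ± 0.29 and PDGFC by 0.78 ± 0.13, and PDGFA, another platelet-derived factor, by -1.59 ± 0.25. The levels of HGF and TGFA in U87MG lay above all 4 other arrays.

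The tested receptors did not share that direction. Of 23 receptor tyrosine kinases 0 were called higher and 2 lower in limma, 1 was higher and 9 were lower than in both lines, and the median was -0.446. The filter left out 14 more, and none of these was above background in A172 or T98G. KDR and PDGFRA among them were above background in both U87MG arrays. PDGFRB, a receptor for platelet-derived growth factor, read 5.95 and 5.71 against 7.86 to 8.33, a difference of -2.29 ± 0.19 (adjusted p = 0.00815). PTK7, a pseudokinase of Wnt and planar polarity signalling, differed by -1.56 ± 0.28. EGFR read 8.44 and 8.09 against 8.34 or more and MET 8.88 and 9.90 against 7.62 to 9.33, with adjusted p of 0.125 and 0.115. In the fit with a term for each line both passed against each line: EGFR was lower than in A172 and T98G (limma adjusted p = 0.0184 and 0.00513) and MET higher (0.00019 and 0.00346). Within either transfection the U87MG array lay beyond those of both other lines for each receptor.

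Inflammatory signals were mixed among the genes tested. Of 20 cytokines and chemokines 3 were called higher and 0 lower by limma, 6 were higher and 4 lower than in both lines, and the median was 0.202. Beside IL1B, these were CSF3, the granulocyte colony-stimulating factor, at 9.11 and 9.36 against 6.33 to 6.71, and CXCL1, a neutrophil attractant, with a difference of 0.83 ± 0.14. Of 20 cytokine receptors 3 were called higher and 0 lower by limma, but 5 were higher and 6 lower than in both lines, and the median was -0.147. TNFRSF1B, the second receptor for tumour necrosis factor, differed by 3.07 ± 0.17, IL13RA1 by 1.05 ± 0.13 and IL6R by 0.89 ± 0.11. IL7R, the interleukin-7 receptor, was among those lower than in both, at 7.64 and 7.30 against 9.58 to 11.27. The filter left out 9 more cytokines and chemokines and 6 more receptors, which were not tested. Among these, CXCL2 read 5.00 and 4.88 in U87MG against 2.9 to 3.2, and CCR1 5.89 and 5.22 against 3.47 to 3.96. CXCL10 read 4.2 and 4.6 in T98G and at most 2.56 elsewhere. Leukocyte markers were measured beside these genes. CD68, a lysosomal protein of macrophages found in many cultured cells, differed by 2.00 ± 0.10, and it was the 1 member called of 4 measured. LCP1, an actin bundler of blood cells and many tumour lines, read 7.23 and 6.96 against 5.33 and 5.57 in A172 and 4.10 and 4.14 in T98G. It was not called (limma adjusted p = 0.0852) but was higher than in each line, and the median of the 4 was 0.848. PTPRC, CD3E and AIF1, defining leukocyte genes, were near background in both U87MG arrays, at 2.70 to 3.44.

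Class II histocompatibility genes present peptides to helper T cells. Of 6 measured in this list, HLA-DPB1 was called, at 8.52 and 8.08 in U87MG against 4.86 to 5.77, and 3 were higher and 0 lower than in both lines. HLA-DRB5, described above, was called but was not in the list. The filter left out HLA-DQA1, at 5.40 and 5.04 in U87MG against 3.58 to 3.82, and HLA-DQB1, near background on every array. HLA-DPA1 read 9.60 and 9.65 against 3.92 and 4.33 in A172 and 6.73 and 6.96 in T98G, and was not called (adjusted p = 0.108), though it passed against each line taken alone. CIITA, the transactivator of this family, differed by 0.16 and was not called. Of 34 interferon-stimulated genes 1 was higher and 4 were lower, with a median of -0.479. IFITM3, which blocks virus entry, read 7.36 and 7.31 against 9.99 to 10.12, a difference of -2.71 ± 0.11 (adjusted p = 0.00147). IFITM2 differed by -2.54 ± 0.27, MX2 by -2.84 ± 0.49 and SAMD9L by -1.31 ± 0.17, whereas OASL, an antiviral relative of the oligoadenylate synthetases, was higher by 1.96 ± 0.15.

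Matrix genes differed on both sides. Among 26 matrix proteases and inhibitors 4 were called higher and 1 lower. Against both lines 13 were higher and 6 lower, and the median was 0.972, with 11 of the 26 negative. CTSK, the collagen-cutting protease cathepsin K, read 9.08 and 9.07 against 4.44 to 4.72, a difference of 4.48 ± 0.11 (adjusted p = 0.00069). ADAMTS5 and ADAMTS1, which cut proteoglycans, differed by 2.81 ± 0.16 and 1.83 ± 0.15, and TIMP1, an inhibitor of metalloproteases, by 1.37 ± 0.20. ADAM17, a sheddase, differed by -0.98 ± 0.12.

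Of 17 collagens 2 were higher and 3 lower. COL4A1 and COL4A2, the common chains of basement membrane collagen, were lower: COL4A1 read 4.45 and 4.49 against 8.30 and 8.15 in A172 and 6.98 and 6.91 in T98G, and COL4A2 differed by -1.88 ± 0.22. COL18A1, another basement membrane chain, differed by -0.97 ± 0.13. NID1, the nidogen that links laminin with collagen IV, was lower as well, at 5.09 and 4.76 against 8.01 to 9.59. COL1A1, a chain of fibrillar collagen, was higher by 1.80 ± 0.31. VCAN, the proteoglycan versican, read 9.68 and 9.74 against 5.05 to 6.37, and LOXL3, a lysyl oxidase, differed by 2.33 ± 0.12. TNC, the glycoprotein tenascin-C, read 10.37 and 10.68 against 4.04 and 4.25 in A172 and 6.71 and 6.76 in T98G and was just outside the threshold (adjusted p = 0.0621).

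Signalling by the TGF-beta family showed members on either side. In the BMP list 3 of 26 were higher and 2 lower. Beside GREM1, the ligand GDF5 was at least 2.42-fold higher and the inhibitory SMAD7 differed by 0.87 ± 0.14. BMP4 read 4.38 and 4.55 against 5.87 to 6.05, and BAMBI, a decoy receptor, 5.86 and 5.64 against 8.49 to 9.99. In the TGF-beta and activin list, LTBP1 and LTBP3, which hold latent TGF-beta in the matrix, were higher by 3.88 ± 0.55 and 1.00 ± 0.14. The ligand TGFB2 and the feedback inhibitor PMEPA1 differed by -1.88 ± 0.23 and -2.17 ± 0.17. Of 26 Wnt genes 2 were higher and 3 lower: the ligand WNT7B differed by 3.85 ± 0.17 and the R-spondin RSPO3 was at least 2.34-fold higher, while the receptors LRP5, ROR1 and FZD2 differed by -1.27, -1.66 and -1.10.

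Genes of neural wiring and excitability differed on both sides. Of 20 ion channels 3 were called higher and 0 lower by limma, with a median of 0.299. CACNA1A, the pore of P/Q-type calcium channels, read 8.22 and 8.19 against 4.31 to 4.53, and CACNA2D1, an auxiliary calcium channel subunit, was at least 6.04-fold higher. Besides GABRQ, the receptor subunits CHRNA9, at least 4.54-fold, and GABRA3, with 2.33 ± 0.18, were called among 12 neurotransmitter receptors, while 19 more fell below the filter. The median of the 12 was -0.0288, with 6 positive and 6 negative, and its sign turned when quantile normalization was repeated. Axon guidance gave 6 higher and 2 lower of 33, but 20 of the 33 were negative, 7 were higher and 8 lower than in both lines, and the median was -0.211. SEMA7A, a membrane-anchored semaphorin, read 10.27 and 10.31 against 7.42 to 7.84, and EFNB2, an ephrin, differed by 4.19 ± 0.74. SLIT2, a repellent ligand, read 4.61 and 4.91 against 8.13 to 8.65, a difference of -3.63 ± 0.20 (adjusted p = 0.00283). PAX6, an early eye and brain transcription factor, was at least 6.12-fold higher. Of 46 measured neural and mesodermal transcription factors, however, 1 was called higher and 0 lower, 25 were negative, and the median was -0.105. Of 11 neural stem and progenitor genes 1 was called higher and 1 lower, 9 were negative, and the median was -0.259.

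Of 5 measured astrocyte genes 0 were called in either direction by limma, while 2 were higher and 1 lower than in both lines. GFAP, the intermediate filament of astrocytes, read 5.07 and 5.08 in U87MG and 5.15 to 5.39 elsewhere and was not called (adjusted p = 0.355). SLC1A3, a glutamate transporter, read 8.02 and 7.89 against 3.85 and 3.95 in A172 and 6.25 and 6.09 in T98G, and GJA1, the gap junction protein connexin 43, differed by 1.07. Both were higher than in each line. AGT, the precursor of angiotensin, was lower than in each, at 4.29 and 4.09, both near background, against 4.45 to 6.10. The median of the 5 was 0.018, and its sign turned with another centring. AQP4, S100B and SLC1A2, further astrocyte genes, fell below the filter and were near background on every array. Of the markers of mesenchymal glioblastoma 2 of 17 were called higher and 1 lower, 7 were higher and 2 lower than in both lines, and the median was 0.264. CHI3L1, a secreted chitinase-like protein, read 9.91 and 9.84 against 4.82 to 5.97, and STAT3 differed by -0.86 ± 0.14. KDR, the VEGF receptor known from endothelium, was left out by the filter although it read 5.71 and 5.89 in U87MG against 3.16 to 3.65. PECAM1 and VWF, other endothelial genes, were near background in both U87MG arrays.

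In metabolism, 2 of 18 cholesterol synthesis genes were called lower. Against both lines 10 were lower and 1 higher, and the median was -0.773. IDI1 and FDPS, enzymes of isoprenoid synthesis, differed by -0.75 ± 0.11 and -0.91 ± 0.15. The median was -0.303 against A172 and -0.978 against T98G. Of 20 NRF2 targets and aldo-keto reductases 18 were negative, 8 were lower and 1 higher than in both lines, and the median was -1.05. The distance depended on the line: the median was -0.0285 against A172 and -1.69 against T98G. The 1 member called, ALDH1A3, which makes retinoic acid, was higher at 10.54 and 9.99 against 5.51 to 7.42. Of 28 genes of oxidative phosphorylation 0 were called by limma, and 1 was higher and 0 lower than in both lines. The difference was positive in 21 of the 28, where 45.8% of all tested genes were positive, and the median was 0.172. It too depended on the line, at 0.349 against A172 and -0.128 against T98G.

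Targets of p53, which halts the cycle after damage, were 0 called of 24 (limma), with 6 higher and 0 lower than in both lines and a median of 0.496. The median was 0.111 against A172 and 0.626 against T98G. CDKN1A, the cycle inhibitor p21, read 7.73 and 8.42 in U87MG, 7.90 and 8.14 in A172, and 5.92 and 5.65 in T98G. For this gene U87MG overlapped with A172 and lay above T98G. Of 38 genes of mitosis 3 were higher and 1 lower, and all 4 differed by less than 2-fold. Of 37 genes of cycle entry and DNA replication (G1/S), 2 were called higher and 0 lower, and the median was 0.202. Against both lines 10 of them were higher and 3 lower. CDK6, a kinase of cycle entry outside that list, was lower, at 7.64 and 7.41 against 9.14 to 9.60.

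**Figure D5:**
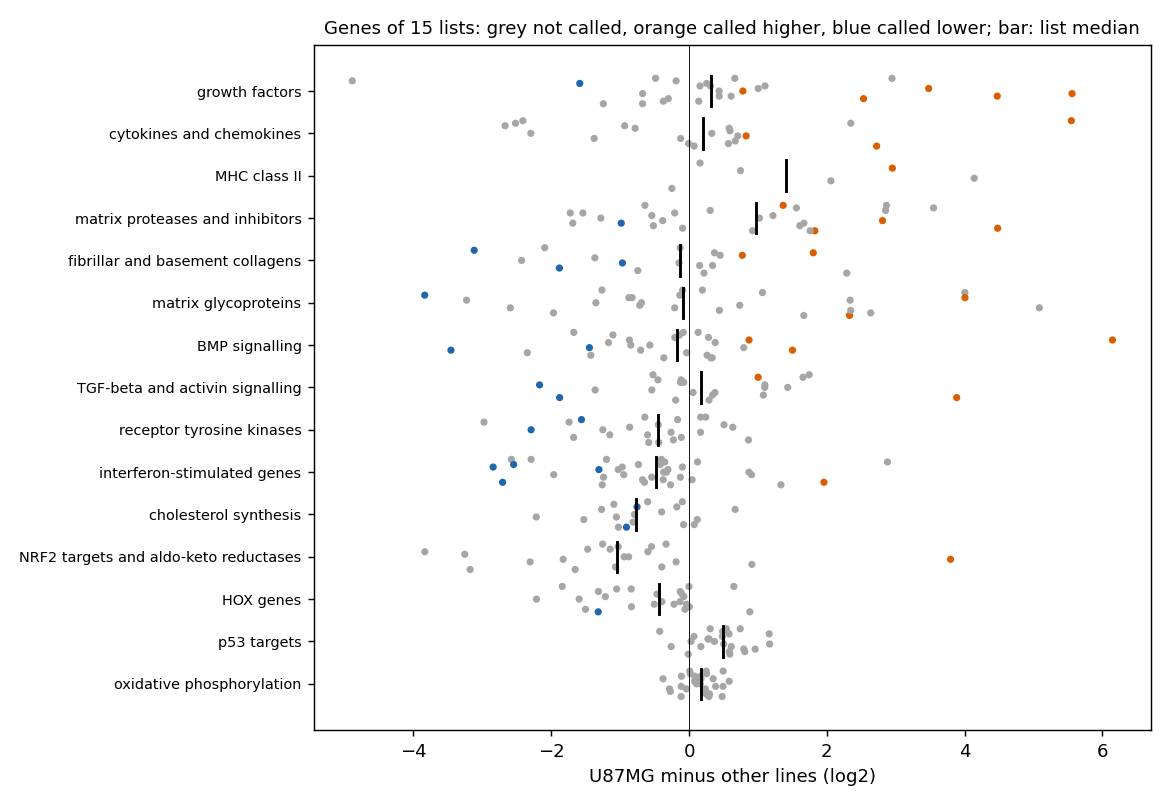
Difference of U87MG to the other lines (horizontal axis, log2) for the measured genes of 15 lists, 1 point per gene, with vertical position within a list spread for legibility; orange is called higher, blue called lower, grey not called, and the bar is the list median. Matrix proteases have a median of 0.972, with 11 of the 26 genes negative, and cholesterol synthesis has -0.773. Genes of oxidative phosphorylation lie between -0.377 and 0.583, with a median of 0.172.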

How the data were processed

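For the 6 arrays (Affymetrix Human Gene 1.0 ST) the authors deposited log2 values, made by RMA with oligo in R 3.0.1 per the submitters' processing notes. RMA's quantile step gives the arrays 1 distribution, so a shift of most genes would be largely removed. The genome build is not given in the sources used here.

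Values were used as they stood. Of 33297 probe sets, 19460 had 1 symbol in the platform annotation, 1754 several and 12083 none listed. RefSeq (GRCh38.p14) gave names for 19429, gene order and promoter windows, and 31 kept the annotation's symbol. Y-linked genes and XIST (23) were left out. The brightest probe set stood for a gene (768 of 18394 had more than 1), and the lowest 25% by mean, below 4.28, were left out. Limma 3.58.1 in R 4.3.3 (two-sided, Benjamini-Hochberg) set U87MG against both lines as 1 group with transfection as a term (3 residual degrees of freedom, 1.7 from the prior), and then with a term per line (2 and 4.56). Only the first of these fits was tested on simulated data, in which arrays varied independently and A172 and T98G did not differ.

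Members and lists were chosen with earlier results of these data known. The rule named the 15 higher and 15 lower genes with the largest difference to the nearer line among called genes of at least 2-fold, the 4 markers, and the called members of each list or otherwise up to 4 of smallest p. Other genes, among them TNC, HLA-DPA1, EGFR, MET, CDKN1A, MTAP and KDR, were named after their values were seen. The number of arrays limits the precision, and the labels give no batch.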

Additional observations from a re-analysis of the deposited data

How the results depend on the processing

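The counts of 543 higher and 416 lower genes depended on the model and the arrays. With a term for each line they were 3584 and 3577, without the A172 arrays 3146 and 3175, without the T98G arrays 3803 and 3876, with no transfection term 886 and 744, and with the line as a random block (correlation 0.835) 113 and 76. With the lowest 50% of genes left out they were 341 and 300. Leaving out 1 array gave 0 to 207 higher and 0 to 138 lower genes, 0 without either U87MG array, where the lowest adjusted p was 0.0598 and 0.0549. Fewer arrays leave fewer residual degrees of freedom. Other filters, scalings, priors and probe set rules kept both counts within 1.5 times. With 1 array left out, genes higher than in both lines (1881) numbered 1332 to 1672 and those lower (1735) 1112 to 1529. Of 291 called genes followed, 0 reversed under any of 18 settings, and 27 of the 30 named by size were called with the random block, all but ZNF667-AS1, ZNF724 and ZNF730. All 30 lost their call without either U87MG array. Of 58 lists, 15 had a median that changed sign under some setting, 3 of them under another scaling: astrocyte genes, aquaporins and neurotransmitter receptors. The median of chromosome 14 stayed between 0.448 and 0.513 and that of the zinc finger genes of chromosome 19 between -0.514 and -0.357 over 11 settings. Centring shifted the median of all genes by -0.0415 and repeated quantile normalization by 0.00796. No paired analysis was possible because U87MG is compared with 2 lines at once and the replicate number only marks the transfection, which is already a term of the model; the fit without it is given above as no transfection term.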
